A study of Mus musculus with 15 samples.

Results

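The genes described here encode 10 histone-modifying enzymes or their close relatives, measured in the mouse left ventricle: the H3K27 demethylase genes Kdm6a and Kdm6b, the KMT2 genes Kmt2a, Kmt2b, Kmt2c, Kmt2d and Kmt2e, and the H3K36 methyltransferase genes Ash1l, Setd2 and Nsd1. They were taken by gene symbol from a table of 54532 genes. All 10 were found, and all 10 passed the filter on low values that kept 12585 genes. Transcript levels were measured by poly-A RNA sequencing in 15 libraries from female C57BL/6JRj mice aged 12 to 18 weeks, 8 days after surgery. The design asks how infarction changes the ventricle, and how an EZH2 inhibitor given after infarction changes it.

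GSK hearts (5 libraries) came from mice given GSK-343 at 20 mg/kg by injection into the abdomen, each day from 6 h after surgery to day 7, dissolved in 20% Captisol. The sample names of this group give only the compound, and that they were infarcted too was read from the treatment protocol. MI hearts (5 libraries) had the left descending coronary artery tied off for good, which causes a myocardial infarction, and received the Captisol vehicle. Sham hearts (5 libraries) served as the surgical control and received the vehicle too. Sham replicates 1 and 2 each mixed RNA of 2 animals, so the Sham spread is partly averaged. The labels give the same strain for all mice and no altered allele.

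Trimethylation of lysine 27 on histone H3 (H3K27me3) is written by EZH2 or EZH1 within Polycomb repressive complex 2 (PRC2) and marks silenced genes, and GSK-343 inhibits EZH2. KDM6 enzymes remove this mark, KMT2 enzymes methylate H3K4 at active promoters and enhancers, and a further set of enzymes methylates H3K36 in transcribed and intergenic chromatin. PRC2 works poorly on histone tails that already carry H3K4 or H3K36 methylation. Enzymes that write these marks, like those that remove H3K27me3, are therefore known as counterweights of Polycomb.

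The 10 genes differ in base composition, and some libraries divided them along that of the whole transcript, as described after the group comparisons. The ends of 6 coding sequences are shown for that reason, although such short ends need not follow the whole transcript. Each run is the last 120 coding bases including the stop codon, from GENCODE vM21 on GRCm38 (mm10), and capitals mark G or C at the last position of a codon. Kmt2a (minus strand) lies at chr9:44807902-44808021 and Kmt2b (minus) at chr7:30569161-30569280, each within a single coding exon. Kmt2c (minus) joins chr5:25275628-25275654 to chr5:25273666-25273758, and Kmt2d (minus) joins chr15:98834716-98834742 to chr15:98834500-98834592. Kdm6a (plus) joins chrX:18277526-18277563 to chrX:18278626-18278707, and Kdm6b (minus) joins chr11:69399940-69400035 to chr11:69399826-69399849.
Kmt2a: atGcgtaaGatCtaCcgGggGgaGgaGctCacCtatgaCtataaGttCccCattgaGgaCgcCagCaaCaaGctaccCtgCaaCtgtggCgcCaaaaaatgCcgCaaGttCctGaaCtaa
Kmt2b: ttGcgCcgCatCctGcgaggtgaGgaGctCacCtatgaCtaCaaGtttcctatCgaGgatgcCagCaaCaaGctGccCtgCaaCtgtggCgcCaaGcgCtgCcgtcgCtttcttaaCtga
Kmt2c: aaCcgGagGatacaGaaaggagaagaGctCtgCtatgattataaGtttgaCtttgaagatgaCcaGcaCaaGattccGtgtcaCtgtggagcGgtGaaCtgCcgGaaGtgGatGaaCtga
Kmt2d: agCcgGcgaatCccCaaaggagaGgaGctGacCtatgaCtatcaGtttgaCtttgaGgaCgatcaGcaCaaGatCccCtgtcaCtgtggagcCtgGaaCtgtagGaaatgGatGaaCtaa
Kdm6a: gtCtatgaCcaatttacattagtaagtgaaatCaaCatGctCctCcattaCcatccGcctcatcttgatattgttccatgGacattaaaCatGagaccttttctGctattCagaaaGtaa
Kdm6b: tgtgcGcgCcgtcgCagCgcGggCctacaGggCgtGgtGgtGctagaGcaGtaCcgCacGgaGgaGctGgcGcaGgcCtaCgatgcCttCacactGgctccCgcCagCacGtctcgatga

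These ends were 80.0% identical between Kmt2c and Kmt2d and 77.5% identical between Kmt2a and Kmt2b. Of the 24 differing bases of Kmt2c and Kmt2d, 14 fell on the last codon position. Within these ends, G or C stood at 77.5% of last codon positions in Kmt2a, 75.0% in Kdm6b and 72.5% in Kmt2b. The share was 65.0% in Kmt2d, 60.0% in Kmt2c and 37.5% in Kdm6a, an order unlike that of the whole transcripts. Over the whole coding sequence, G or C stood at 39.8% of last codon positions in Kmt2c and at 59.9% in Kmt2d, and at 38.4% in Kdm6a and 63.9% in Kdm6b. By the longest transcript, 3 genes were GC-rich, set here as over 55% GC: Kdm6b (59.6%), Kmt2b (59.1%) and Kmt2d (58.4%). Another 6 lay below the median of the tested genes (49.9%): Kmt2c (47.6%), Nsd1 (46.5%), Kmt2e (45.9%), Ash1l (45.4%), Setd2 (44.3%) and Kdm6a (42.5%). Kmt2a (50.6%), above the median but under 55%, stood between both sets.

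On mm10 the demethylase genes lie at 2 loci, Kdm6a at chrX:18162575-18279936 and Kdm6b at chr11:69398508-69413675. The KMT2 genes are Kmt2a at chr9:44803355-44881296, Kmt2b at chr7:30568858-30588726, Kmt2c at chr5:25271798-25498783, Kmt2d at chr15:98831669-98871204 and Kmt2e at chr5:23434441-23504235. The H3K36 genes are Ash1l at chr3:88950622-89079375, Setd2 at chr9:110532597-110618633 and Nsd1 at chr13:55209782-55318325. Levels are given as FPKM, fragments per kilobase of exon after scaling each library, and are therefore comparable between genes. Group means of the 10 genes lay between 2.39 FPKM, for Kmt2c in MI hearts, and 6.93 FPKM, for Ash1l in Sham hearts, and each library's value rested on 476 to 2594 fragments. Exons of genes on the opposite strand overlap 9.31% of the exonic bases of Kmt2e (Srpk2), 4.11% of Kdm6b (Kdm6bos), 2.37% of Ash1l (Dap3), 2.27% of Kmt2a (AC061963.1) and 1.35% of Kmt2c (Gm42585). Their levels are uncertain to that extent, since the strand setting of the counting is not known. Uty, the Y-chromosomal relative of Kdm6a, was listed at 0 in all 15 libraries.

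Between 21.5 M and 26.8 M fragments per library were assigned to genes. GSK replicates 3 and 4 and MI replicate 4 stood apart. Mitochondrially encoded transcripts took 46.4%, 48.7% and 40.6% of their summed FPKM, against 31.8% to 32.7% in the other GSK libraries, 23.2% to 27.6% in the other MI libraries and 41.2% to 42.2% in Sham libraries. The differences of Kdm6a, Kdm6b, Kmt2a, Kmt2c and Ash1l in MI minus Sham and in GSK minus MI are given with and without these 3 libraries. The animal number S5 stands in the names of both MI replicate 3 and Sham replicate 2, and it was not settled whether these share a numbering.

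**Figure D1:**
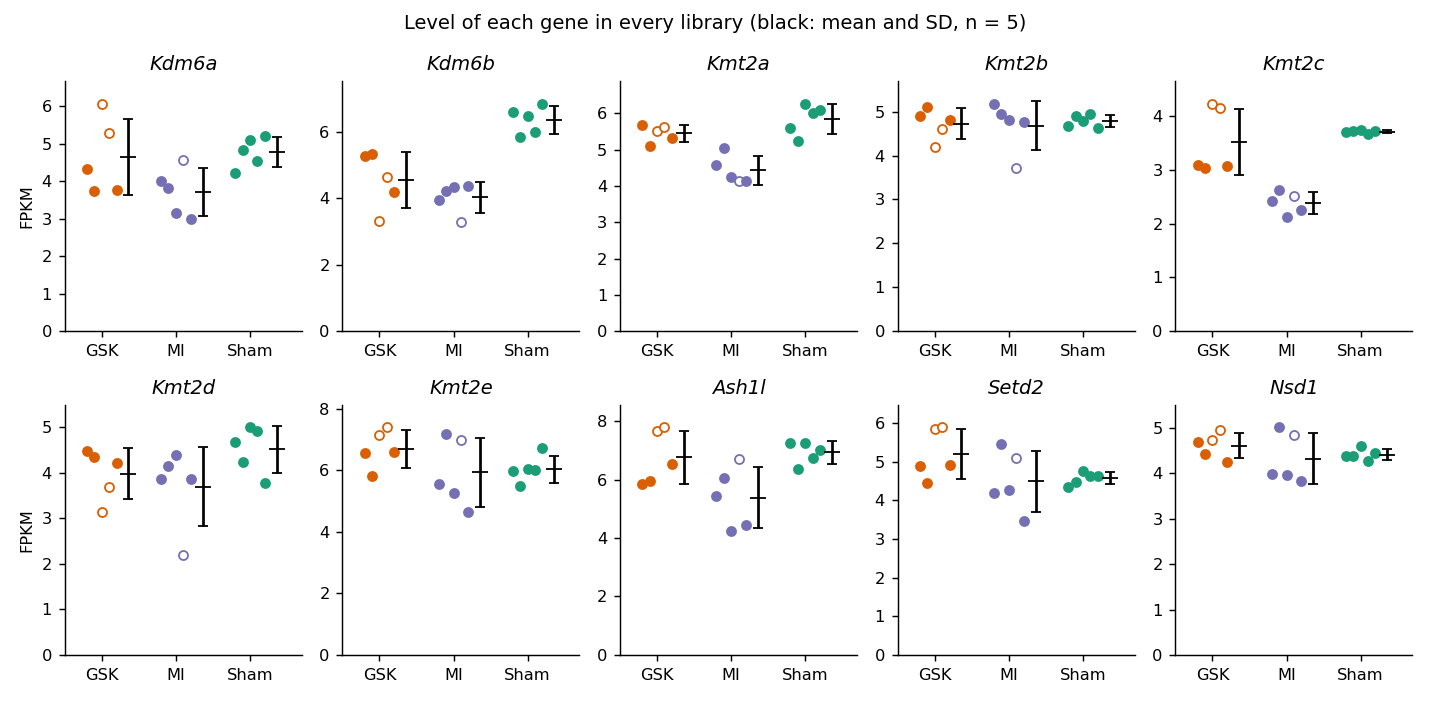
FPKM of the 10 genes in each library of the GSK, MI and Sham groups; open circles are GSK replicates 3 and 4 and MI replicate 4, and the black bar gives the mean and SD of 5 libraries. Kdm6b, Kmt2a and Kmt2c lay lower in every MI library than in any Sham library. Kdm6a, Kmt2b, Kmt2d, Kmt2e, Ash1l, Setd2 and Nsd1 overlapped between all groups.

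In infarcted hearts 5 of the 10 genes were lower than in Sham hearts at a Benjamini-Hochberg adjusted p under 0.05 from limma: Kdm6a, Kdm6b, Kmt2a, Kmt2c and Ash1l. None was higher. Of all tested genes, 21.9% were called lower and 21.9% higher in this comparison. In 3 of the 10 genes every MI library lay below every Sham library (14.2% of all tested genes; 15.7% lay above in the same way). The median difference of the 10 genes was -0.28 in log2(FPKM + 1), against -0.017 for all tested genes. The 10 differences were all below 0, except that Kmt2b, Kmt2e, Setd2 and Nsd1 turned above 0 when mitochondrial genes were left out and library totals equalised, or when the gene length trend of each library was removed. Kmt2b also did so without MI replicate 4, and Kmt2e, Setd2 and Nsd1 without MI replicate 5. With mitochondrial genes left out and totals equalised, 3302 genes were called higher and 1903 lower in MI hearts, against 2757 higher and 2758 lower as deposited. The median difference of all tested genes was 0.061 in that setting, against -0.017 as deposited.

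Both H3K27 demethylase genes were called lower in MI hearts. Kdm6b encodes JMJD3, an inducible demethylase known from macrophages and other activated cells. It measured 3.94, 4.21, 4.34, 3.27 and 4.38 FPKM in MI hearts, against 6.58, 5.85, 6.48, 5.99 and 6.85 FPKM in Sham hearts. All MI libraries lay under the lowest Sham library, with MI replicate 4 the lowest of them. The difference was -0.55 ± 0.10 in log2(FPKM + 1) (SE, n = 5 each; limma adjusted p = 0.000611), and the mean in MI hearts was 0.634 of that in Sham hearts. It was -0.49 (limma adjusted p = 0.000337) without the 3 libraries that stood apart.

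Kdm6a encodes UTX, an X-linked demethylase that sits in the complexes built on the proteins of Kmt2c and Kmt2d. Its levels were 4.01, 3.83, 3.17, 4.58 and 3.01 FPKM in MI hearts and 4.21, 4.84, 5.10, 4.55 and 5.21 FPKM in Sham hearts. The groups overlapped, since MI replicate 4 lay above Sham replicates 1 and 4. The difference was -0.30 ± 0.12 (SE, limma adjusted p = 0.0493), the closest to the threshold among the called genes. It missed the threshold under 15 of 27 alternatives (adjusted p up to 0.259), including the omission of any of MI replicates 1, 2, 3 and 5, of Sham replicates 2 to 5, or of GSK replicates 1 and 4, which share the estimate of spread. Without the 3 libraries that stood apart the difference was -0.36 (limma adjusted p = 0.00433).

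Of the KMT2 genes, Kmt2a and Kmt2c were called lower in MI hearts, and Kmt2b, Kmt2d and Kmt2e were not called. Kmt2c, which encodes a methyltransferase of enhancers that places a single methyl group on H3K4, gave the smallest adjusted p of the 10 genes. It measured 2.43, 2.62, 2.12, 2.52 and 2.26 FPKM in MI hearts, against 3.70, 3.72, 3.75, 3.67 and 3.72 FPKM in Sham hearts. The Sham libraries were nearly level with each other, and the highest MI library lay well under them. The difference was -0.48 ± 0.082 (SE, limma adjusted p = 0.000378), which puts the mean of MI hearts at 0.643 of that of Sham hearts. It was -0.49 (adjusted p = 6.8e-05) without the 3 libraries that stood apart.

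Kmt2a encodes MLL1, the H3K4 methyltransferase known for keeping Hox genes active. Its levels were 4.58, 5.05, 4.25, 4.13 and 4.13 FPKM in MI hearts and 5.60, 5.24, 6.26, 6.00 and 6.10 FPKM in Sham hearts. The groups did not overlap, although MI replicate 2 came close to Sham replicate 2. The difference was -0.33 ± 0.065 (SE, limma adjusted p = 0.000956), and -0.31 (adjusted p = 0.00338) without the 3 libraries that stood apart. It missed the threshold under 1 of 27 alternatives, with mitochondrial genes left out and totals equalised (adjusted p = 0.0536).

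Kmt2d is the close relative of Kmt2c and encodes the main enhancer methyltransferase of many differentiating cells. It measured 3.86, 4.16, 4.39, 2.20 and 3.88 FPKM in MI hearts and 4.67, 4.23, 5.00, 4.92 and 3.78 FPKM in Sham hearts. MI replicate 4 was far under the other MI libraries, and Sham replicate 5 lay within the MI range. The difference was -0.25 ± 0.13 (SE, limma adjusted p = 0.124), and -0.12 (adjusted p = 0.203) without the 3 libraries that stood apart. It was called lower after removal of the GC trend described after the comparisons (-0.33, adjusted p = 0.0113), an alternative chosen after the data were seen.

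Kmt2b, which encodes a methyltransferase of promoters that also carry H3K27me3, lay at 3.72 to 5.18 FPKM in MI hearts and at 4.63 to 4.94 FPKM in Sham hearts. Its difference of -0.031 had a 95% interval of -0.19 to 0.13 (limma adjusted p = 0.758). Kmt2e encodes a reader of methylated H3K4 whose own catalytic domain is thought to be inactive. It lay at 4.65 to 7.19 FPKM in MI hearts and at 5.47 to 6.71 FPKM in Sham hearts, with a difference of -0.035 (95% interval -0.25 to 0.18; adjusted p = 0.797). In both genes the MI libraries reached both above and below the Sham range.

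Among the H3K36 genes Ash1l was called lower in MI hearts, and Setd2 and Nsd1 were not called. Ash1l, the mammalian counterpart of a Trithorax gene of Drosophila, encodes an H3K36 dimethylase. It measured 5.43, 6.05, 4.23, 6.70 and 4.46 FPKM in MI hearts and 7.26, 6.37, 7.27, 6.73 and 7.02 FPKM in Sham hearts. MI replicate 4 lay within the Sham range and the other MI libraries under it. The difference was -0.33 ± 0.11 (SE, limma adjusted p = 0.0221), and -0.40 (adjusted p = 0.00327) without the 3 libraries that stood apart. It missed the threshold under 4 of 27 alternatives. The clearest loss came with mitochondrial genes left out and totals equalised (-0.24, adjusted p = 0.180). The others were omission of MI replicate 3 (0.0640), of MI replicate 5 (0.0524) or of the mixed Sham libraries (0.0593).

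Setd2, which encodes the trimethylase of H3K36 in transcribed genes, lay at 3.47 to 5.46 FPKM in MI hearts and at 4.35 to 4.75 FPKM in Sham hearts. The difference was -0.030 (95% interval -0.23 to 0.17; limma adjusted p = 0.817). Nsd1, which encodes a dimethylase of H3K36 in intergenic chromatin, lay at 3.84 to 5.01 FPKM in MI hearts and at 4.26 to 4.60 FPKM in Sham hearts. The difference was -0.030 (95% interval -0.18 to 0.12; adjusted p = 0.756). For both genes the MI libraries spread around a narrow Sham range, MI replicates 2 and 4 above it.

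In a bulk sample, fewer cells of a type and less RNA per cell cannot be told apart, and the cell markers differed between these groups too. Summed cardiomyocyte markers (9 genes, none at 0) were 5602 to 12124 FPKM in MI hearts and 10743.5 to 13663 FPKM in Sham hearts, with 6 called lower and 1 higher. Summed fibroblast markers (8 genes) were 754.8 to 1790.1 FPKM in MI hearts and 289 to 418 FPKM in Sham hearts, with 5 called higher. All 8 macrophage markers were called higher, summing to 345 to 532 FPKM in MI hearts and 151 to 195 FPKM in Sham hearts. The 5 markers of dividing cells were all called higher, as were 2 of 7 endothelial, 2 of 6 mural, 1 of 3 tested neutrophil and 4 of 10 tested immediate early genes, with 1 mural gene lower. Of 6 lymphocyte markers none passed the filter, and Cd3e was at 0 in 3 libraries. The part of these markers in the members' differences was not tested.

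**Figure D2:**
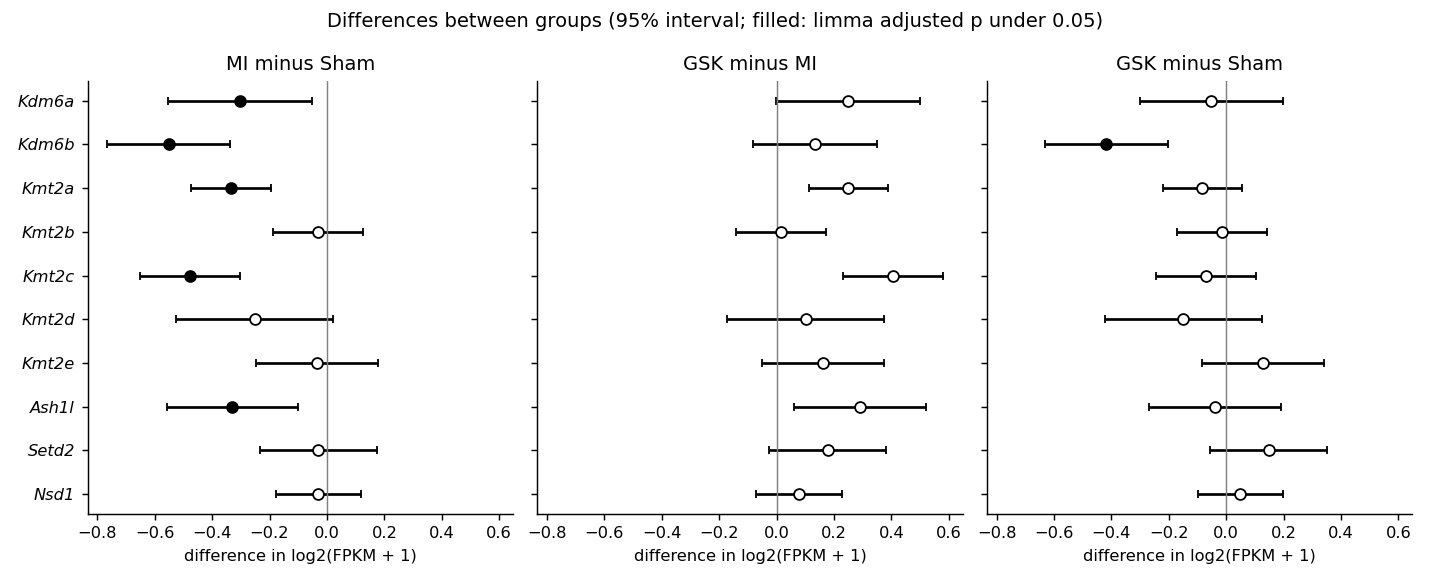
Differences in log2(FPKM + 1) of the 10 genes in MI minus Sham, GSK minus MI and GSK minus Sham, with 95% intervals from limma; filled circles mark an adjusted p under 0.05. In MI minus Sham 5 genes are filled, in GSK minus MI none, and in GSK minus Sham only Kdm6b; Kmt2b, Kmt2e, Setd2 and Nsd1 lie near 0 in MI minus Sham and change side when mitochondrial genes are left out and totals equalised.

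The start regions of Kmt2a and Kmt2c are shown because these 2 KMT2 genes were the ones called lower in MI hearts. Each run is the 250 bases before the gene start in RefSeq on GRCm38.p6, both on the minus strand, with CpG pairs in capitals. Kmt2a is taken from chr9:44881290-44881539 and Kmt2c from chr5:25498784-25499033.
Kmt2a: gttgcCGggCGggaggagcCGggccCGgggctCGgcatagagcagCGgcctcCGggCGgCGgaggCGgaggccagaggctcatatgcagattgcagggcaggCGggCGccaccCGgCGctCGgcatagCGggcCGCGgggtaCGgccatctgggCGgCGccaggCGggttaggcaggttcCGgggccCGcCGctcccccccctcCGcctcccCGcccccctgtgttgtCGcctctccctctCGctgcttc
Kmt2c: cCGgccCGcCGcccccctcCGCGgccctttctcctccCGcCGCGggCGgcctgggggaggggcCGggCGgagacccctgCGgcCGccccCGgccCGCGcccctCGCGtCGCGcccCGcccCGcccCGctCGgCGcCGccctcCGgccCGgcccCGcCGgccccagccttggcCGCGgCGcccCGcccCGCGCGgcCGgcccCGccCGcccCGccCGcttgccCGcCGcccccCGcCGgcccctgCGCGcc

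Of the 10 genes, 5 had an entry in the RefSeq promoter table. Kmt2a held 29 CpG pairs, more than 93.2% of 32851 promoters, and Kmt2c held 48, more than 99.8%, where the median promoter held 6. Kmt2d (26 CpG pairs) and Setd2 (31), neither called on the deposited values, were CpG-rich as well, and Kdm6a held 15. Searched on both strands, the GC box GGGCGG was present in all 5 entries and in 32.7% of all promoters. The CRE motif TGACGTCA (1.55% of all promoters) and the AP-1 motif TGACTCA (4.46%) were in none of the 5, and the E-box CACGTG (6.02%) was in that of Kdm6a alone among them.

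Under GSK-343 no member was called against MI hearts, and the largest differences were those of Kmt2c and Ash1l, followed by Kmt2a and Kdm6a at 0.25 each. Kmt2c had the largest of the 10 differences in all 27 alternatives as well, and the order of the others varied between them. The adjusted threshold called 0% of all tested genes higher and 0% lower (2 genes by limma voom on recovered fragments, no member among them), so the calls carry no contrast between these genes and others. At an unadjusted p under 0.05, 3 of the 10 genes were higher and none lower, where 10.8% of all tested genes were higher and 10.1% lower. The median difference of the 10 was 0.17, against 0.0023 for all tested genes, and all 10 were above 0. With the gene length trend of each library removed, Kmt2b, Kmt2d and Nsd1 turned below 0, as did Kmt2b and Kmt2d without MI replicate 4 and Kmt2b without GSK replicate 2. Since the MI libraries enter both this comparison and the one with Sham hearts, their differences are not independent.

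Kmt2c measured 3.09, 3.05, 4.23, 4.15 and 3.08 FPKM in GSK hearts, against 2.43, 2.62, 2.12, 2.52 and 2.26 FPKM in MI hearts. The groups did not overlap. GSK hearts fell into 2 levels, with replicates 3 and 4 high and the other 3 libraries close together below them. The difference was 0.41 ± 0.082 (SE, n = 5 each; limma adjusted p = 0.0751), and 0.28 (adjusted p = 0.302) without GSK replicates 3 and 4 and MI replicate 4. It passed the threshold under 2 of 27 alternatives, without GSK replicate 5 (adjusted p = 0.0392) and without MI replicate 1 (adjusted p = 0.0321). In these settings 288 and 392 of the 12585 tested genes were called.

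Kmt2a measured 5.68, 5.10, 5.52, 5.63 and 5.32 FPKM in GSK hearts, against 4.58, 5.05, 4.25, 4.13 and 4.13 FPKM in MI hearts. Here the GSK libraries were close to each other, GSK replicates 3 and 4 included, and none overlapped the MI range. The difference was 0.25 ± 0.065 (SE, limma adjusted p = 0.101), and 0.21 (adjusted p = 0.487) without the 3 libraries that stood apart. Kmt2a and Kmt2c were the members whose groups did not overlap, where 1.15% of all tested genes lay higher and 0.858% lower in this way.

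Ash1l lay at 5.86, 5.95, 7.67, 7.78 and 6.52 FPKM in GSK hearts and at 5.43, 6.05, 4.23, 6.70 and 4.46 FPKM in MI hearts. The groups overlapped, and GSK replicates 3 and 4 were again the highest libraries. The difference was 0.29 ± 0.11 (SE, limma adjusted p = 0.157), and 0.24 (adjusted p = 0.490) without the 3 libraries that stood apart.

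The demethylase genes were not called. Kdm6a measured 4.33, 3.74, 6.07, 5.28 and 3.77 FPKM in GSK hearts, with replicates 3 and 4 high, and differed from MI hearts by 0.25 ± 0.12 (SE, limma adjusted p = 0.240), or by 0.14 (adjusted p = 0.624) without the 3 libraries that stood apart. Kdm6b measured 5.28, 5.35, 3.31, 4.64 and 4.18 FPKM in GSK hearts, with replicate 3 the lowest, and differed by 0.13 ± 0.10 (SE, adjusted p = 0.451), or by 0.18 (adjusted p = 0.512) without those 3 libraries. GSK replicate 3 was thus the highest library of its group for Kdm6a and the lowest for Kdm6b.

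The other 5 genes overlapped widely between GSK and MI hearts. Setd2 lay at 4.44 to 5.88 FPKM in GSK hearts, a difference of 0.18 (95% interval -0.025 to 0.38), and Kmt2e at 5.82 to 7.39 FPKM, a difference of 0.16 (-0.049 to 0.38). Kmt2d lay at 3.15 to 4.49 FPKM in GSK hearts, a difference of 0.10 (-0.17 to 0.37). Nsd1 (0.079, interval -0.071 to 0.23) and Kmt2b (0.015, interval -0.14 to 0.17) were closest to 0.

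Summed macrophage markers were 193 to 452 FPKM in GSK hearts and 345 to 532 FPKM in MI hearts, and summed cardiomyocyte markers were 8201 to 11958 FPKM in GSK hearts and 5602 to 12124 FPKM in MI hearts. At an unadjusted p under 0.05, 3 of 8 macrophage markers were lower and 3 of 9 cardiomyocyte markers higher. The 3 tested neutrophil markers were all lower at that threshold (median difference -0.85), summing to 2.56 to 10.3 FPKM in GSK hearts and 5.63 to 17.5 FPKM in MI hearts. The 8 fibroblast markers had a median difference of -0.56, with none past that threshold. As for all tested genes here, no marker was called after adjustment, and the part of these markers in the members' differences was not tested.

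Against Sham hearts, Kdm6b was the 1 of 10 members called lower under GSK-343, and none was called higher. That count is near the share of all tested genes, of which 7.58% were called lower and 10.8% higher. With mitochondrial genes left out and totals equalised, 1945 genes were called higher and 426 lower in this comparison, against 1354 and 954 as deposited. The median difference of all tested genes was 0.091 in that setting, against -0.016 as deposited. Kdm6b measured 5.28, 5.35, 3.31, 4.64 and 4.18 FPKM in GSK hearts and 6.58, 5.85, 6.48, 5.99 and 6.85 FPKM in Sham hearts. Every GSK library lay under every Sham library, as did 7.79% of all tested genes, with 10.6% above in the same way. The difference was -0.42 ± 0.10 (SE, n = 5 each; limma adjusted p = 0.0126), and -0.31 (adjusted p = 0.0188) without the 3 libraries that stood apart. The call held in all 27 alternatives run, with adjusted p up to 0.0468. All 5 markers of dividing cells were called higher in GSK than in Sham hearts, with a median difference of 1.38, and none of the 5 overlapped between the groups. Called higher as well were 6 of 8 macrophage, 4 of 8 fibroblast, 2 of 7 endothelial and 2 of 6 mural markers and 1 of 10 tested immediate early genes, and 2 of 9 cardiomyocyte markers were called lower. The part of these markers in the difference of Kdm6b was not tested.

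The other 9 genes were not called between GSK and Sham hearts, with adjusted p from 0.286 (Setd2, difference 0.15) to 0.902 (Kmt2b, -0.016). Kmt2c differed by -0.071 (95% interval -0.25 to 0.10). Its 3 lower GSK libraries, at 3.05 to 3.09 FPKM, lay below all Sham libraries and its 2 higher ones, at 4.15 and 4.23 FPKM, above them all. Without GSK replicates 3 and 4 and MI replicate 4 it was called lower than in Sham hearts, by -0.21 (limma adjusted p = 0.0289). For Kmt2a the difference was -0.083 (-0.22 to 0.056), and for Ash1l -0.039 (-0.27 to 0.19). Both turned above 0, as did Kdm6a, Kmt2b and Kmt2c, when mitochondrial genes were left out and totals equalised.

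The members are long genes, and libraries can differ in how values depend on length. Exonic lengths ran from 6954 bases (Kdm6b) to 20291 bases (Kmt2c), against a median of 3977 bases, and 8 of the 10 lay in the top length decile of tested genes. Per library, the slope of a gene's deviation from its mean on log2 length was -0.0049, -0.013, 0.051, 0.062 and 0.013 in GSK, -0.015, 0.028, -0.032, 0.039 and -0.034 in MI, and -0.036 to -0.0078 in Sham. GSK replicates 3 and 4 and MI replicate 4 had the steepest slopes, which means that long genes stood relatively high in them. GSK minus Sham was 0.040 (exact two-sided permutation test, p = 0.0238; 0.0714 adjusted over 3 comparisons), GSK minus MI 0.024 (exact p = 0.278) and MI minus Sham 0.016 (exact p = 0.373), where the smallest possible p was 0.00794. Without those 3 libraries GSK minus Sham was 0.017 (exact p = 0.107).

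In GSK minus MI the median difference of the top length decile was 0.096 and that of the bottom decile -0.051, so other long genes lay above 0 as well. At its length Kmt2c exceeded the trend by 0.26, Kdm6a by 0.19, Ash1l by 0.18 and Kmt2a by 0.13. In MI minus Sham the top length decile had a median of -0.085. Relative to the trend at its length, Kdm6b stood there at -0.52, Kmt2c at -0.34, Kdm6a at -0.26, Ash1l at -0.23 and Kmt2a at -0.22. These 5 were called lower in MI hearts with the length trend removed as well.

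**Figure D3:**
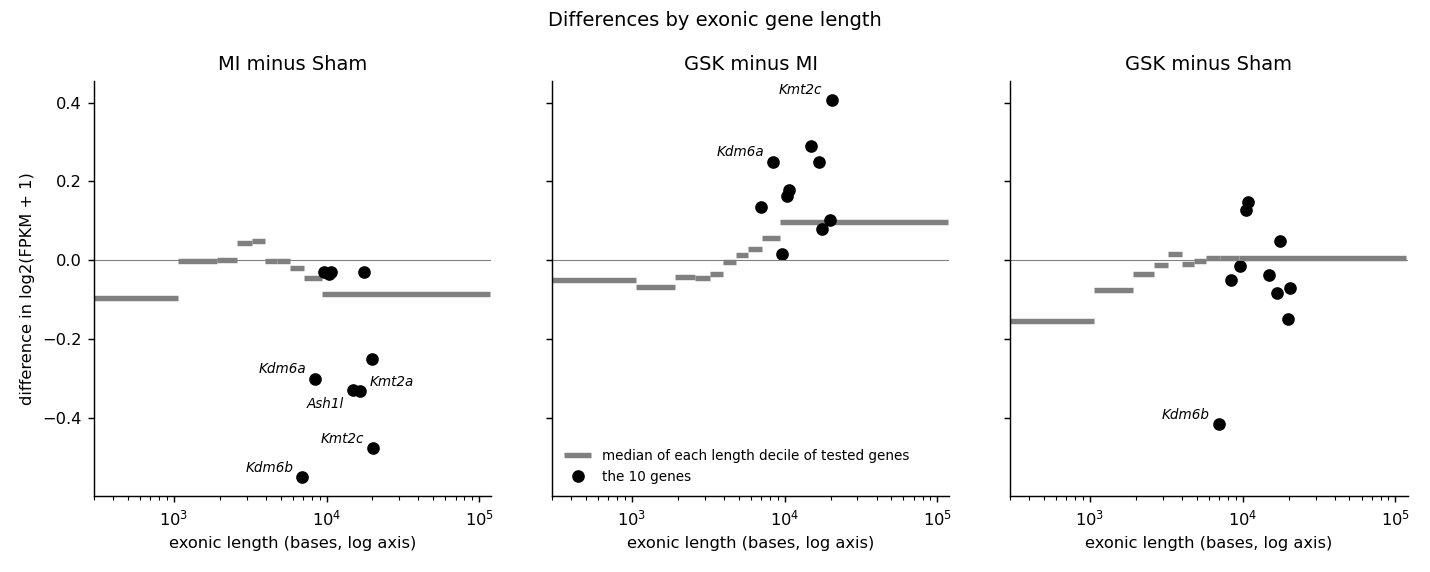
Difference in log2(FPKM + 1) against exonic gene length (log axis) in MI minus Sham, GSK minus MI and GSK minus Sham; black points are the 10 genes and grey bars the median of each length decile of all tested genes. In GSK minus MI the bar of the longest genes lies at 0.096, and Kmt2c stands farthest above them; in MI minus Sham Kdm6b and Kmt2c stand farthest below.

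Within the groups, the genes other than Kmt2a varied in 2 opposed sets of unlike base composition. The opposition rested on the 3 libraries that stood apart. GC content was examined after these pairs had been seen, so the split is a description. Over deviations from the group means (15 libraries), all 15 pairs of the 6 genes with low GC content correlated positively, with Pearson r from 0.604 to 0.917 and Kmt2e with Setd2 highest. The 3 GC-rich genes did so as well, at r = 0.884 for Kmt2b with Kmt2d, 0.659 for Kdm6b with Kmt2d and 0.656 for Kdm6b with Kmt2b. All 18 pairs across the sets were negative, from -0.708 (Kdm6a with Kmt2d) to -0.225, with Kdm6a and Kdm6b at -0.646 and the close relatives Kmt2c and Kmt2d at -0.522. Kmt2a, placed in neither set, correlated positively with both, at 0.339 to 0.571 with the GC-poor genes and 0.131 to 0.248 with the GC-rich genes. With Kmt2a counted among the GC-rich genes, the pairs across the sets would not all be negative. Without GSK replicates 3 and 4 and MI replicate 4 (12 libraries, a choice made after the data were seen), the 15 pairs of GC-poor genes remained positive, from 0.518 to 0.910. The 18 pairs across the sets then lay at -0.240 to 0.390 with a median of -0.026, 8 of them above 0, the 3 pairs of GC-rich genes at -0.251 to 0.148, and the pairs of Kmt2a with GC-poor genes at 0.637 to 0.840. These values describe shared libraries and carry no test.

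**Figure D4:**
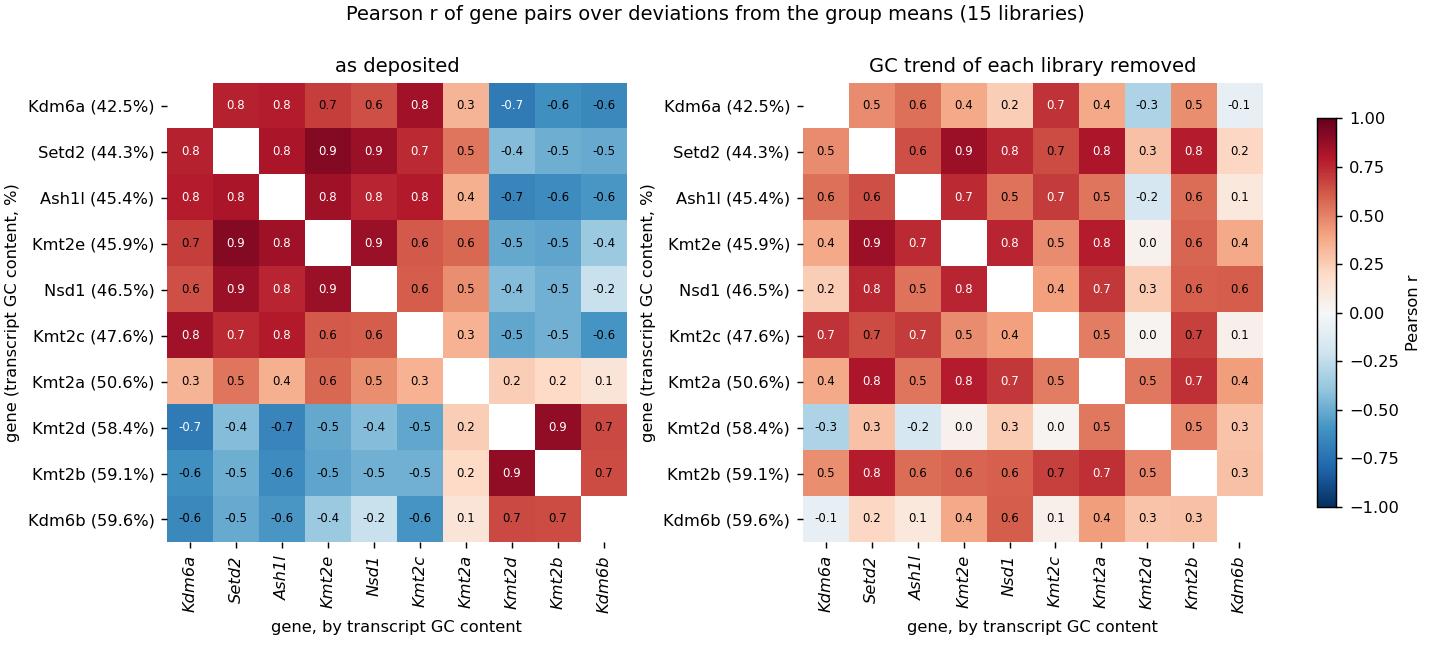
Pearson r of each pair of the 10 genes over deviations from the group means in 15 libraries, with genes in order of transcript GC content, as deposited (left) and after removal of each library's GC trend (right). As deposited, the 6 genes of low GC content form a positive block, the 3 GC-rich genes another, and the pairs between them are negative; after removal 15 of these 18 pairs are positive. The negative pairs rest on GSK replicates 3 and 4 and MI replicate 4, without which their median is -0.026.

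The same order was present across all genes. The slope of a gene's deviation on the GC content of its transcript, per 10 percentage points, was 0.032, 0.099, -0.176, -0.175 and 0.034 in GSK libraries, 0.144, -0.0021, 0.163, -0.143 and 0.229 in MI libraries, and -0.058 to -0.023 in Sham libraries. GSK replicates 3 and 4 and MI replicate 4, the libraries with a high mitochondrial share within their groups, had the most negative slopes. The Sham libraries differed little among themselves. Over the 15 libraries the mean slope differed by 0.119 in MI minus Sham (exact permutation p = 0.127). It differed by -0.115 in GSK minus MI (exact p = 0.222) and by 0.0037 in GSK minus Sham (exact p = 0.937). Apart from GSK replicates 3 and 4 and MI replicate 4, every MI and every GSK library had a higher slope than any Sham library. The GC slope was not tested between groups without those 3 libraries. Within groups the GC slope correlated with Ash1l at r = -0.905, Setd2 at -0.901 and Kdm6a at -0.855, and with Kmt2b at 0.775, Kmt2d at 0.734 and Kdm6b at 0.652. Without those 3 libraries Setd2 stood at -0.977, Ash1l at -0.771 and Kdm6a at -0.587, whereas Kmt2b stood at -0.062, Kmt2d at -0.148 and Kdm6b at 0.163. Kmt2a stood at -0.261 over the 15 libraries and at -0.795 without those 3. These are descriptions, and over the 15 libraries GC slope and length slope moved together (r = -0.721).

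Kmt2c and Kmt2d illustrate this at the level of single libraries. In GSK hearts Kmt2c was highest in replicates 3 and 4 (4.23 and 4.15 FPKM), where Kmt2d was lowest (3.15 and 3.68 FPKM). In MI replicate 4 Kmt2d was at 2.20 FPKM, its lowest value in any library, and Kmt2c at 2.52 FPKM, within the MI range. With each library's GC trend removed, 15 of the 18 pairs across both sets were positive, with r from -0.307 to 0.783, and Kmt2c with Kmt2d stood at 0.026. With each library's length trend removed instead, 17 of these 18 pairs were negative, with a median r of -0.56 (-0.516 as deposited). The 15 pairs of GC-poor genes then had a median r of 0.474 (0.784 as deposited), from -0.26 to 0.844. Of the 6 pairs of Kmt2a with GC-poor genes, all above 0 as deposited, 1 remained above 0.

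**Figure D5:**
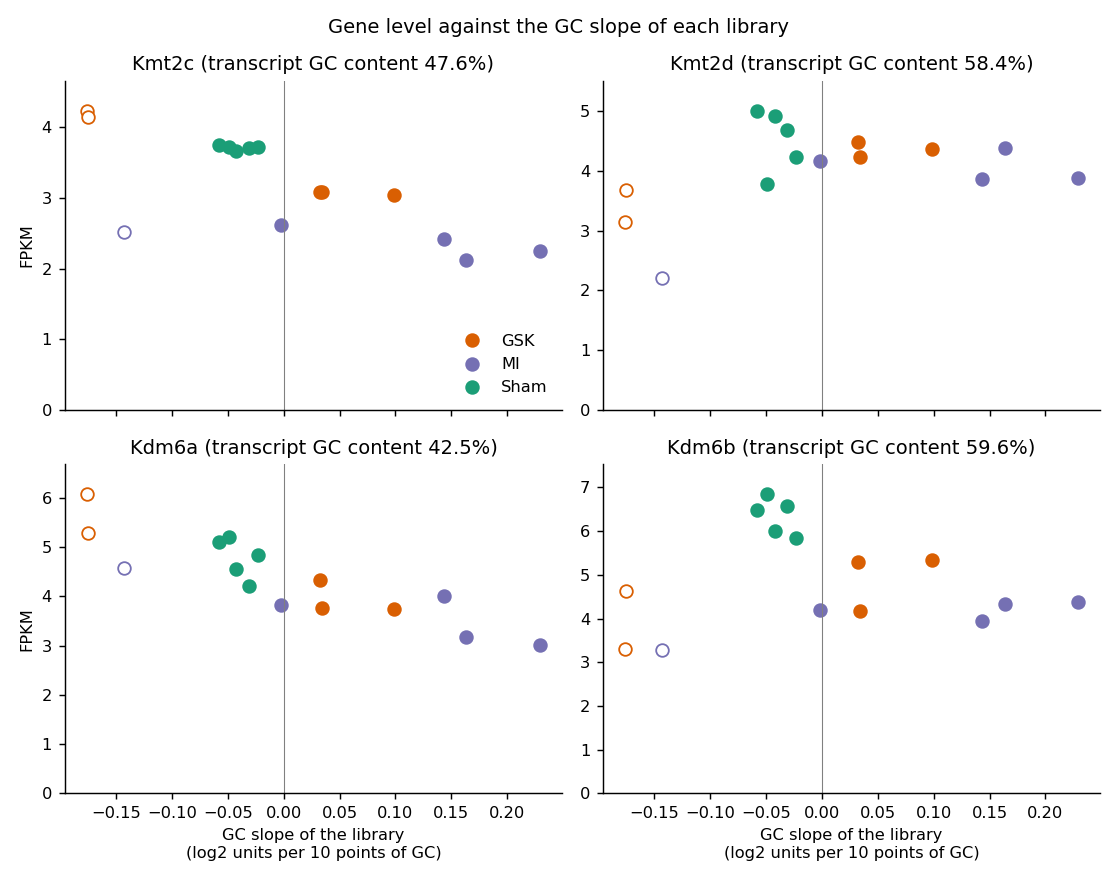
FPKM of Kmt2c, Kmt2d, Kdm6a and Kdm6b in each library against the library's GC slope, the change in log2 units per 10 percentage points of transcript GC content; colours give GSK, MI and Sham, and open circles are GSK replicates 3 and 4 and MI replicate 4. The open circles lie at slopes of -0.176 to -0.143; Kmt2c and Kdm6a are high in the 2 open GSK libraries, and Kmt2d is lowest in the open MI library.

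Removing the GC trend kept 4 of the 5 calls in MI minus Sham and moved many of the differences that were not called. In MI minus Sham, Kdm6b stood at -0.63, Kmt2c at -0.45, Kmt2a at -0.34 and Ash1l at -0.28, all called, with Kmt2d called in addition and Kdm6a at an adjusted p of 0.0516. Kmt2e (0.010), Setd2 (0.032) and Nsd1 (0.0086) turned above 0 there, and Kmt2b stood at -0.11. With GC and length trends both removed, 6 of the 10 were called lower: Kdm6a, Kdm6b, Kmt2a, Kmt2c, Kmt2d and Ash1l. In GSK minus MI, Kmt2c stood at 0.37 (limma adjusted p = 0.0754) with the GC trend removed and at 0.28 (0.0869) with both removed, and no member was called. With the GC trend removed, the 3 GC-rich genes lay higher in GSK minus MI than as deposited, Kdm6b at 0.24, Kmt2b at 0.12 and Kmt2d at 0.20, and Kdm6a (0.16), Setd2 (0.11) and Nsd1 (0.034) lay lower. Each of these 6 moved by over 1.5 times. Kmt2b stayed uncalled in every setting and comparison run.

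Genes that work beside the members were counted in lists by function. Of all tested genes, 21.9% were called lower and 21.9% higher in MI against Sham. In GSK against Sham these shares were 7.58% and 10.8%. Of the 4 genes listed as the shared core of KMT2 complexes (Wdr5, Rbbp5, Ash2l and Dpy30), none was called in MI against Sham. Ash2l stood at -0.13 (limma adjusted p = 0.0849) and Rbbp5 at -0.16 (0.0952). A wider list held partners of these complexes, of SET1-type complexes and of acetyltransferase complexes. Of its 13 tested genes, 2 were called lower and 1 higher. Bod1l, a partner of SET1-type complexes, averaged 2.86 ± 0.293 FPKM in MI hearts and 3.96 ± 0.176 FPKM in Sham hearts (SD, n = 5 each; difference -0.36, adjusted p = 0.00207), and Hcfc1, a scaffold protein, differed by -0.18 (0.0496). Morf4l2, which encodes an MRG-domain protein of acetyltransferase complexes, averaged 36.1 ± 5.27 FPKM in MI hearts and 21.4 ± 1.00 FPKM in Sham hearts (0.72, adjusted p = 0.000168).

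Among 5 tested genes of other H3K4 methyltransferases, Smyd2 was called higher in MI hearts (0.45, limma adjusted p = 0.00853) and none lower. Of 4 other H3K36 methyltransferase genes, Setd5 was called higher (0.24, adjusted p = 0.0135) and Setmar lower (-0.43, adjusted p = 0.00829). Setd5 was called higher in GSK than in Sham hearts too (0.22, adjusted p = 0.0430), the 1 related gene of these lists that was called there. Nsd2, the closest relative of Nsd1, was at 0.14 in MI minus Sham (adjusted p = 0.0986).

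Enzymes that remove the marks of the members were mixed. Of 7 genes listed for H3K4 demethylation, Kdm1b (-0.48, limma adjusted p = 0.000508) and Kdm5a (-0.24, 0.0200) were called lower in MI hearts and Kdm1a, which encodes LSD1, higher (0.24, 0.0191). None of 6 H3K36 demethylase genes was called, Kdm8 coming closest (-0.28, 0.0532). Of 5 genes for H3K27 acetylation and its readers, Ep300, an acetyltransferase of enhancers, was called lower (-0.26, 0.00339). Of the 4 PRC2 core genes, Ezh2 was called higher (0.28, 0.00568) and Ezh1 (-0.27, 0.00973) and Suz12 (-0.35, 0.0490) lower. None of these related genes was called in GSK against MI, where no tested gene was called at all.

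By Pearson correlation of log2(FPKM + 1) over the 15 libraries, the protein-coding genes most like Kdm6a were Hbp1 (r = 0.962), Mettl4 (0.941) and Dpp8 (0.932). Those most like Kdm6b were Cebpzos (0.943), Angptl6 (0.920) and Mllt6 (0.897). The libraries share group, mitochondrial share and GC slope, so these values describe a common profile only.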

How the data were processed

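The authors deposited FPKM for 54532 genes in 15 libraries beside each gene's length and position on mm10. The submitters' processing notes name HISAT2, Subread with featureCounts, R 3.5.1 and DESeq2, without saying which step each served. RNA of 1000 ng with a RIN above 8 was read as 150 nt paired ends, per the labels' protocols. Each FPKM times gene length was a whole multiple of a library-specific step within 0.01 for 100% of 338664 values, so fragment numbers were recovered. Groups and replicates follow the sample names, and GSK replicates 1 and 2 carry the letter G in their animal numbers where all others carry S. Where nothing shows separate cultures or litters, p-values measure the spread between these samples.

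Values were taken as log2(FPKM + 1), which understates changes of low genes, and a gene had to reach 1 FPKM in 5 or more libraries to be tested. The R package limma (version 3.58.1, R 4.3.3) fitted the 3 group means jointly, with moderated variances that follow the mean. A call required an adjusted p (Benjamini-Hochberg, over the 12585 tested genes) under 0.05. Every adjusted p of a gene in the text comes from limma. The 10 genes were named in full, related genes by at most 3 per list with the lowest p, and likeness was ranked for Kdm6a and Kdm6b. The members and the lists were chosen with earlier results of these data known.

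Length and GC slopes are least-squares slopes across tested genes within each library, compared by exact two-sided permutation tests. GC content was taken from the longest GENCODE vM21 transcript, which 99.91% of tested genes had. A trend was removed by subtracting a lowess curve of the deviations in each library. Alternatives were another pseudocount, no filter, a replicate block, voom on recovered fragments, quantile normalization, mitochondrial genes left out with totals equalised, fits of 2 groups only, and omission of single libraries, of the 2 mixed Sham libraries, and of GSK replicates 3 and 4 with MI replicate 4. The GC alternatives were added after the data were seen.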

Additional observations from a re-analysis of the deposited data

Results flagged for a closer look

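MI replicate 4 stood apart from the other MI libraries in 2 GC-rich genes. It measured 2.20 FPKM for Kmt2d, where the other 4 MI libraries lay at 3.86 to 4.39 FPKM, and 3.72 FPKM for Kmt2b, where the other 4 lay at 4.77 to 5.18 FPKM. In both cases the gap to the next library was a larger share of the group's range than the 95% critical value of Dixon's test allows (0.761 for Kmt2d and 0.722 for Kmt2b). The test was applied to 36 groups of 5 values, and chance alone marks about 1 in 20 of them. The same library had a mitochondrial share of 40.6% and the lowest GC slope of the MI group, -0.143 per 10 percentage points; the part of either in these values was not tested.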

How the results depend on the processing

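Against Sham, the lower calls of Kdm6b and Kmt2c in MI hearts and of Kdm6b in GSK hearts held in all 27 alternatives. The 5 members called in MI against Sham became 2 with mitochondrial genes left out and totals equalised, 3 without the mixed Sham libraries, and 3 to 5 when single libraries were left out. In GSK against MI, leaving out a library gave 0 to 1 called members and 0 to 392 called genes (0 with all libraries), a pseudocount of 0.1 gave 3 genes and voom on recovered fragments 2. In GSK against Sham 2 members were called without GSK 3, GSK 4 and MI 4 (1 otherwise). Called genes there numbered 2308, against 1459 with the replicate block, 1242 without the mixed Sham libraries, 3477 from the 2 groups alone and 1185 to 2888 without single libraries. The replicate block made Kdm6a lose its call in MI against Sham (0.0676) and changed no other call of a member. The labels give no sign that replicate numbers pair the samples. Same-numbered deviations correlated at -0.411 to 0.486, the highest being GSK 4 with MI 4, and cannot settle whether they do. The length slope of GSK minus Sham was 0.017 (exact p = 0.107) without GSK 3, GSK 4 and MI 4, and 0.030 to 0.049 without single libraries. The exact p was 0.0556 to 0.0714 without any of Sham 1 to 4 and 0.0476 without Sham 5. Without single GSK libraries it was 0.00794 to 0.0238. Fewer assignments exist under each of these omissions.

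Differences that changed sign were small and not called. With mitochondrial genes left out, MI minus Sham became 0.052 for Kmt2b, 0.052 for Kmt2e, 0.053 for Setd2 and 0.052 for Nsd1, and GSK minus Sham became 0.062 for Kdm6a, 0.032 for Kmt2a, 0.095 for Kmt2b, 0.037 for Kmt2c and 0.080 for Ash1l. With the length trend removed, MI minus Sham became 0.016 for Kmt2b, 0.021 for Kmt2e, 0.029 for Setd2 and 0.084 for Nsd1, and GSK minus MI became -0.052 for Kmt2b, -0.039 for Kmt2d and -0.047 for Nsd1. Without GSK 3, GSK 4 and MI 4, MI minus Sham became 0.035 for Kmt2b, and GSK minus Sham became 0.041 for Kmt2b. With the GC trend removed, MI minus Sham became 0.010 for Kmt2e, 0.032 for Setd2 and 0.0086 for Nsd1, and GSK minus Sham became 0.0081 for Kmt2b. With both trends removed, MI minus Sham became 0.029 for Kmt2e, 0.054 for Setd2 and 0.074 for Nsd1, and GSK minus MI became -0.049 for Nsd1. Over the omission of single libraries, MI minus Sham ranged from -0.062 to 0.035 for Kmt2b, -0.099 to 0.035 for Kmt2e, -0.091 to 0.042 for Setd2 and -0.075 to 0.0037 for Nsd1. Likewise, GSK minus MI ranged from -0.051 to 0.050 for Kmt2b and -0.032 to 0.16 for Kmt2d, and GSK minus Sham from -0.14 to 0.0063 for Kdm6a, -0.040 to 0.019 for Kmt2b and -0.086 to 0.0032 for Ash1l. With mitochondrial genes left out and totals equalised, the median of all tested genes moved as well. It went from -0.017 to 0.061 in MI minus Sham and from -0.016 to 0.091 in GSK minus Sham. The cause of the sign changes was not tested.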
